A study of Mus musculus with 24 samples.

Results

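Sprr1a, the gene of small proline-rich protein 1A, was followed in mouse dorsal root ganglia after a crush of the sciatic nerve. It was taken by its symbol from the deposited table, where it is 1 of 14066 named genes and has 1 row, transcript ENSMUST00000054599. The ganglia hold the cell bodies of sensory neurons with their satellite glia and Schwann cells. All animals were wild-type C57BL/6 mice aged 12 weeks (the strain field of the labels spells it C57B/L6), and all had the crush, so there was no uninjured group. Animals of the camptothecin arm were injected intraperitoneally with camptothecin (2 mg/kg), a topoisomerase I inhibitor, 30 minutes after injury. The others received vehicle, whose makeup the labels do not give. Ganglia were taken at 18, 24 or 36 h. The 19 libraries used were 3 camptothecin and 3 vehicle libraries at 18 h, 4 camptothecin and 3 vehicle libraries at 24 h, and 3 of each at 36 h. A further 5 of the 24 labelled samples were not analysed here. Which ganglia were taken, the sex of the mice and whether each sample came from its own animal are not stated, so the spread that p-values rest on is that between libraries and could be technical.

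Small proline-rich proteins are best known from skin, where transglutaminases cross-link them into the cornified envelope of keratinocytes. Sprr1a is also among the genes that injured peripheral neurons switch on most strongly. In cultured sensory neurons its protein lies in axons and growth cones with filamentous actin, and raised amounts of it favour neurite outgrowth. Its induction by injury is tied to transcription factors of the AP-1 family such as Jun and Atf3, and, in heart muscle, to cytokines that act through the gp130 receptor.

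Sprr1a lies in the epidermal differentiation complex, on the minus strand of chromosome 3 at 92483952 to 92485895 (GRCm38, GENCODE M21). Its only annotated transcript has 806 bases in 2 exons. The 46 bases of the first exon are 5' untranslated, and the second exon carries the whole coding sequence of 432 bases and the 3' untranslated region. None of its 757 stretches of 50 bases occurs in a GENCODE transcript of another gene, on either strand, so the related Sprr genes share no such stretch with it. Genes nearby include Sprr3 and Sprr1b on one side and Sprr4 and Ivl, the gene of involucrin, on the other.

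The 250 bases before the RefSeq start of Sprr1a (RefSeq, GRCm38.p6, minus strand) are shown because the injury factors Jun and Atf3 are measured beside the gene. The last 14 of them lie in the first GENCODE exon. Capitals mark matches to the AP-1 motif.
Sprr1a promoter, chr3:92485882-92486131: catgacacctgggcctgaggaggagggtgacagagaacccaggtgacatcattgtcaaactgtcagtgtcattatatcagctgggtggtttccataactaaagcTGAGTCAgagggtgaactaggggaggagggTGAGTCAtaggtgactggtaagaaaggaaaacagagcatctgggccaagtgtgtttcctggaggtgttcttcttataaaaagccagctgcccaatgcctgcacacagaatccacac
The window held 2 matches to the AP-1 motif (TGAGTCA or its reverse complement TGACTCA), at -146 to -140 and -116 to -110 from the start. Of 32851 promoter windows of the same length, 4.46% held at least 1 match and 0.167% held 2 or more. It held no match to the cyclic AMP response element TGACGTCA, found in 1.55% of the windows, and none to the STAT motif TTCNNNGAA, found in 7.02%. A match to TATAAA lay at -43 to -38, and 12.4% of the windows held that motif on either strand. A match in these letters is a description and not a bound site.

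The libraries held between 3.62 M and 15.04 M counts, and at each time every camptothecin library was deeper than every vehicle library. The arms also differed in their trend with GC content. With each transcript set against its mean over libraries, the Spearman correlation with its GC content lay between -0.0738 and 0.334 in camptothecin libraries and between -0.321 and 0.0665 in vehicle libraries. All 20 sensory neuron markers were measured, with summed levels of 26290 CPM or more in each library. Levels are counts per M counts of the library (CPM), with effective library sizes from TMM scaling. Log2 fold changes, standard errors (SE) and two-sided p-values are from edgeR's quasi-likelihood test on 18606 transcripts, with Benjamini-Hochberg adjustment over all of them and a threshold of 0.05.

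At 18 h the camptothecin libraries held 44.0, 86.7 and 154 CPM of Sprr1a (replicates 2, 3 and 4), and the vehicle libraries held 54.0, 41.3 and 17.6 CPM (replicates 1, 3 and 4). The lowest camptothecin library lay inside the vehicle range, while the other 2 lay above it. The smallest raw count was 78 reads, in vehicle replicate 4, with a 95% Poisson interval of 61.7 to 97.3 that covers counting error only. At 24 h the camptothecin libraries held 148, 158, 98.6 and 168 CPM (replicates 1 to 4), and the vehicle libraries held 108, 166 and 114 CPM (replicates 1 to 3). Those ranges overlapped over nearly their whole width. At 36 h the camptothecin libraries held 789, 892 and 641 CPM (replicates 1 to 3), and the vehicle libraries held 854, 575 and 1100 CPM (replicates 2 to 4). Every library of 36 h lay above every library of 18 h and of 24 h, in both arms.

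**Figure D1:**
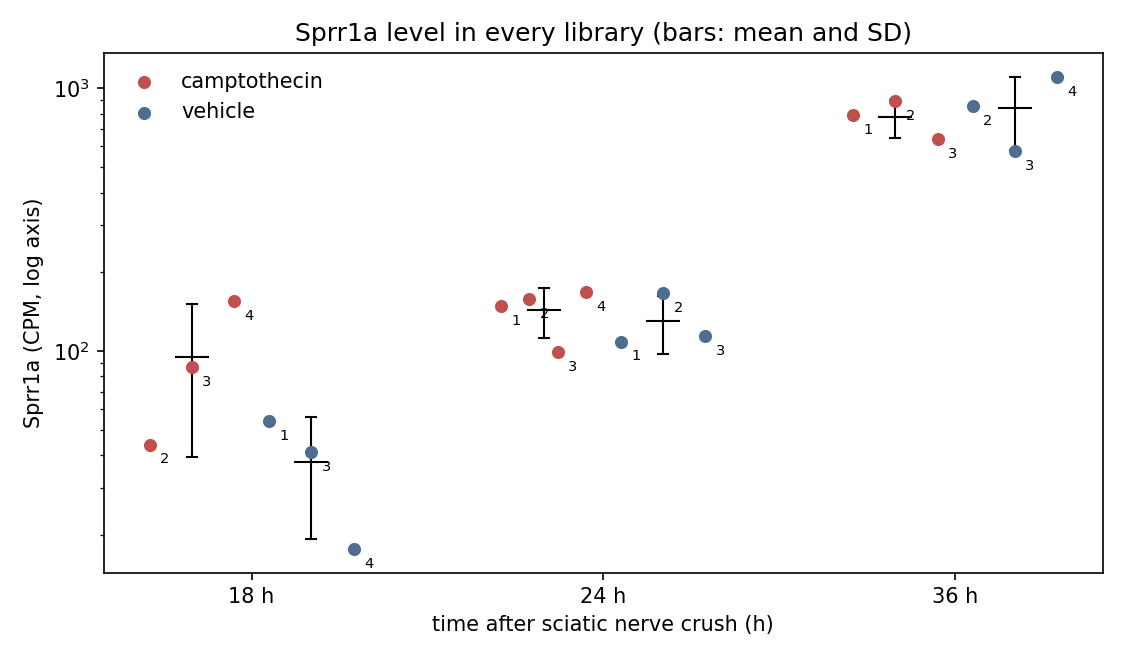
Sprr1a in each of the 19 libraries by time after the crush, in CPM on a log axis, with camptothecin left of vehicle. Points are libraries with their replicate numbers, and bars give the mean and SD. All libraries of 36 h sit at 575 CPM or more, above the highest library of the earlier times at 168 CPM.

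In camptothecin ganglia the mean level of Sprr1a was 94.98 ± 55.6 CPM at 18 h (SD, n = 3), 143 ± 30.7 CPM at 24 h (n = 4) and 774 ± 126 CPM at 36 h (n = 3). In vehicle ganglia it was 37.6 ± 18.5, 130 ± 31.8 and 843 ± 263 CPM at those times (n = 3 each). From low to high the group means ran vehicle 18 h, camptothecin 18 h, vehicle 24 h, camptothecin 24 h, camptothecin 36 h and vehicle 36 h. Neighbours in that order overlapped in range, except camptothecin 24 h and camptothecin 36 h. Per kilobase of transcript, Sprr1a ranked 416th of 18213 transcripts with a known length in camptothecin and 1268th in vehicle ganglia at 18 h. It ranked 244th in camptothecin and 288th in vehicle ganglia at 24 h, and 28th in both arms at 36 h. Ganglia are bulk tissue, in which more cells with the transcript and more transcript per cell cannot be told apart.

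The level of Sprr1a was far higher at 36 h than at 18 h in both arms. In vehicle ganglia it rose at 36 h over 18 h by a log2 fold change of 4.50 ± 0.41 (SE), a 22.7-fold change with a 95% interval of 12.6 to 40.7 (edgeR adjusted p = 1.27e-06). That was the 7th largest rise and the 4th smallest p of the 18606 transcripts, of which 1.44% were called. For 7.86%, as for Sprr1a, every library of 36 h lay above every library of 18 h. In camptothecin ganglia, which share no library with that comparison, it rose at 36 h over 18 h by 3.02 ± 0.37, an 8.13-fold change with an interval of 4.79 to 13.8 (edgeR adjusted p = 0.000182). There it had the 6th largest rise and the 5th smallest p, with 0.511% of transcripts called and 9.62% with all libraries of 36 h higher. Averaged over the arms the rise was 3.76 ± 0.27 (edgeR adjusted p = 3.06e-08), in a comparison with 4.03% of transcripts called.

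Most of the rise fell between 24 and 36 h. In camptothecin ganglia Sprr1a rose at 36 h over 24 h by 2.44 ± 0.32 (edgeR adjusted p = 0.00103; 0.161% of transcripts called, 4.68% with all libraries of 36 h higher). In vehicle ganglia it rose by 2.70 ± 0.36 (edgeR adjusted p = 0.00112; 0.145% called, 6.25% with all higher). Averaged over the arms this step was 2.57 ± 0.24 (edgeR adjusted p = 3.13e-06; 0.957% called). It was the 2nd largest rise of the 18606 transcripts between those times.

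Between 18 and 24 h the arms gave different values. In camptothecin ganglia Sprr1a had 0.59 ± 0.33 at 24 h over 18 h, with a 95% interval of -0.09 to 1.27 (edgeR adjusted p = 0.964). The ranges overlapped, and 0% of transcripts passed there by edgeR; 940 had an unadjusted p under 0.05, and DESeq2 called 1. In vehicle ganglia it rose by 1.80 ± 0.38 (edgeR adjusted p = 0.0491; 0.231% called, 8.36% with all libraries of 24 h higher), a call at the edge of the threshold. With single libraries left out it passed in 5 of 19 cases, without camptothecin replicate 2 or 4 of 18 h, camptothecin replicate 4 of 24 h, or vehicle replicate 3 or 4 of 36 h; in the other 14 it did not, with adjusted p up to 0.266 without vehicle replicate 2 of 24 h. Averaged over the arms the step was 1.20 ± 0.25 (edgeR adjusted p = 0.0343; 0.554% called), and it was lost without any 1 of 7 libraries. These were camptothecin replicates 2 and 3 and vehicle replicate 4 of 18 h, and camptothecin replicates 1 and 2 and vehicle replicates 2 and 3 of 24 h.

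**Figure D2:**
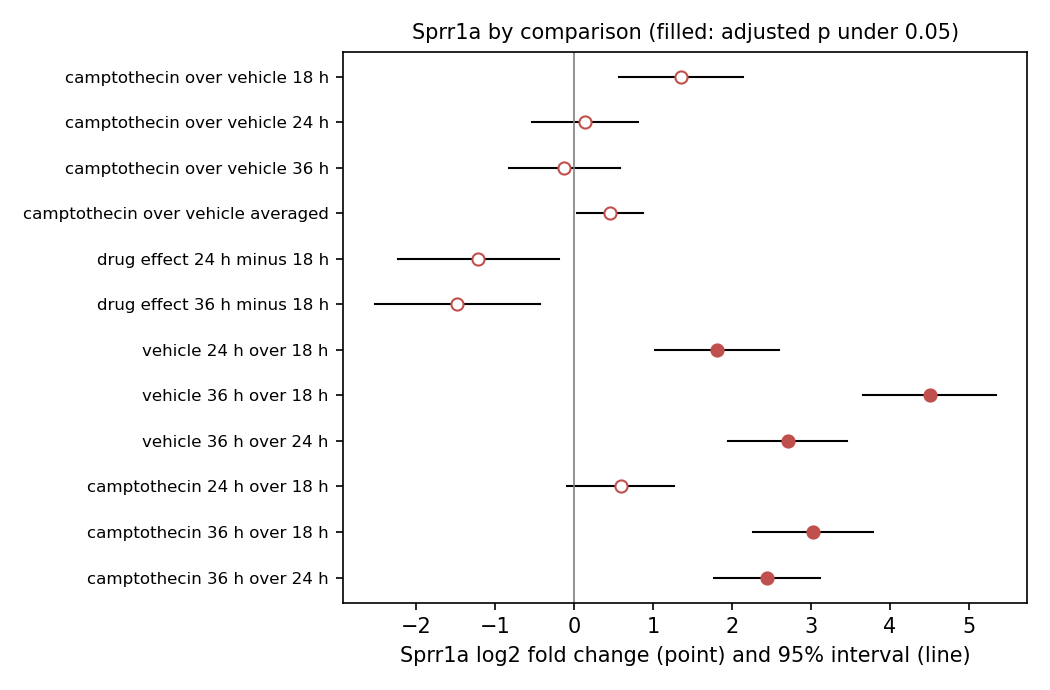
Log2 fold change of Sprr1a (points) with its 95% interval (lines) in 12 comparisons, from edgeR. Filled points have an adjusted p under 0.05. The comparisons of 36 h with the earlier times lie between 2.44 and 4.50, far from 0, while those of camptothecin over vehicle lie between -0.12 and 1.35.

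The labels set camptothecin against vehicle at each time. At 18 h the level was higher in camptothecin than in vehicle ganglia, with a log2 fold change of 1.35 ± 0.38, a 2.56-fold difference with a 95% interval of 1.49 to 4.39. It did not pass (edgeR adjusted p = 0.069; 1.58% of transcripts called). In the authors' deposited table the log2 fold change at 18 h was 1.06, with an adjusted p of 0.0848. An exact permutation of the 6 libraries of 18 h gave a two-sided p = 0.2, where 0.1 is the smallest that 3 against 3 allows.

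The value at 18 h rested on the libraries numbered 4. Camptothecin replicate 4 was the highest and vehicle replicate 4 the lowest of the 6. The log2 fold change was 0.82 ± 0.35 without camptothecin replicate 4 (edgeR adjusted p = 0.293) and 1.00 ± 0.38 without vehicle replicate 4 (edgeR adjusted p = 0.207). Without all libraries numbered 4 it was 0.50 ± 0.30 (edgeR adjusted p = 0.441). Without camptothecin replicate 2 or vehicle replicate 1, it was 1.69 ± 0.35 and 1.74 ± 0.44. DESeq2 called the difference (1.38 ± 0.43, adjusted p = 0.0218), as did edgeR with a minimum count of 50, with library totals as the only scaling or with counts summed by symbol (adjusted p between 0.0353 and 0.0491) and edgeR without vehicle replicate 4 of 36 h (1.36, adjusted p = 0.036). With depth (log2 of the total) added to the model it was 1.02 ± 0.57 (edgeR adjusted p = 0.999); since depth separates the arms at each time, depth and drug cannot be told apart there.

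**Figure D3:**
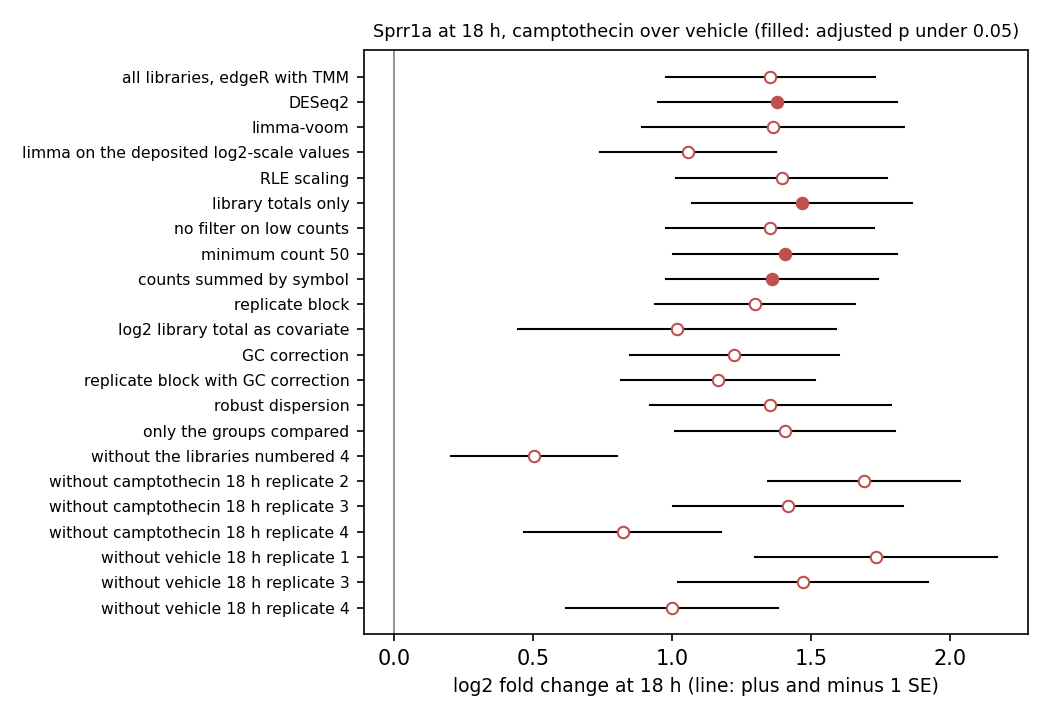
Sprr1a at 18 h, log2 fold change of camptothecin over vehicle (points, with lines of 1 SE to each side), by setting and with each 18 h library left out. Filled points have an adjusted p under 0.05. All values are above 0, from 0.50 without the libraries numbered 4 to 1.74 without vehicle replicate 1.

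At the later times the arms lay close together. At 24 h the log2 fold change of camptothecin over vehicle was 0.14 ± 0.32, with a 95% interval of -0.53 to 0.81 (edgeR adjusted p = 0.966; 0% of transcripts called, 1485 at an unadjusted p under 0.05, and 124 called by DESeq2). At 36 h it was -0.12 ± 0.34, with an interval of -0.83 to 0.58 (edgeR adjusted p = 0.899; 2.5% of transcripts called). It turned to 0.12 ± 0.36 without vehicle replicate 4 of 36 h. These intervals leave room for a change of up to 1.75-fold up at 24 h and for a level as low as 0.564 of vehicle at 36 h. The exact permutation p was 0.571 at 24 h, where 0.0286 is the smallest possible, and 0.9 at 36 h.

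Averaged over the 3 times the camptothecin effect on Sprr1a was 0.46 ± 0.20 (unadjusted p = 0.0327, edgeR adjusted p = 0.164), and 10.3% of transcripts were called in that comparison. An exact permutation of the arms within each time, over 14000 arrangements of log2(CPM + 1), gave a mean difference of 0.44 and a two-sided p = 0.166. The average was 0.28 ± 0.18 without camptothecin replicate 4 of 18 h, and 0.57 ± 0.18 without camptothecin replicate 2 of 18 h, where the edgeR adjusted p was 0.0498.

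The difference of the camptothecin effect between times was tested directly. The effect was smaller at 36 h than at 18 h by 1.48 on the log2 scale (log2 value -1.48, SE 0.50, unadjusted p = 0.00795, edgeR adjusted p = 0.986; 0.0107% of transcripts called). For 24 h against 18 h the difference was -1.21 ± 0.49 (unadjusted p = 0.0222, edgeR adjusted p = 1.0; 0% of transcripts called, 785 at an unadjusted p under 0.05, and 4 called by DESeq2). Neither passed. Without camptothecin replicate 4 of 18 h they were -0.94 ± 0.46 and -0.68 ± 0.45, and without all libraries numbered 4 they were -0.39 ± 0.38 and -0.44 ± 0.37.

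Sprr1a varied more between replicates than most transcripts of similar mean level over all libraries. Its dispersion in edgeR was 0.0907, a coefficient of variation between replicates of 0.301. That dispersion exceeded that of 99.8% of the 500 tested transcripts nearest to it in mean level, but only that of 54.97% of all tested transcripts. The ratio of the highest to the lowest library was 3.50 in camptothecin and 3.06 in vehicle ganglia at 18 h. It was 1.70 and 1.53 at 24 h, and 1.39 and 1.91 at 36 h, in the same order of arms. By this ratio the spread was thus widest at 18 h in both arms, while the SD in CPM was largest at 36 h in both.

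The transcripts most alike in pattern were taken as the 10 with the highest Pearson correlation with Sprr1a in log2(CPM + 1) over the 19 libraries, among 17021 named transcripts with a mean of at least 1 CPM. Of these, 9 are described. They were the adhesion receptor Adgrd1 (r = 0.98), the beta tubulin Tubb6 (0.967), the bicarbonate transporter Slc4a8 (0.965), galanin (Gal, 0.959) and the sulfotransferase Chst2 (0.957). They went on with Aim1 (0.954), the growth cone protein Gap43 (0.954), the receptor Gpr151 (0.951) and neuropeptide Y (Npy, 0.947). Spearman's rho for these 9 ran from 0.868 for Chst2 to 0.958 for Slc4a8. The points share library, depth and above all time, so these values describe a common course and carry no p.

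Set beside these 9, Sprr1a had the largest log2 fold change at 36 h over 18 h. In camptothecin ganglia Gal had 2.42 ± 0.25 and Npy 1.74 ± 0.32, against the 3.02 of Sprr1a. In vehicle ganglia Npy had 4.27 ± 0.45 and Gal 3.54 ± 0.29, against the 4.50 of Sprr1a. Npy averaged only 0.893 CPM in vehicle ganglia at 18 h, beside 5.64 CPM in camptothecin ganglia. Its values against that vehicle group thus rest on few reads. Gal and Npy passed in both arms (edgeR adjusted p of 0.0093 or less). At 18 h Gal was higher in camptothecin than in vehicle ganglia by 1.42 ± 0.29 (edgeR adjusted p = 0.0281) and Npy by 2.68 ± 0.47 (edgeR adjusted p = 0.0159), in a comparison where 0.317% of transcripts were called higher. Sprr1a lay near Gal in size at that time but had a larger SE and did not pass. Gap43, whose r was as high, had 0.85 ± 0.13 in camptothecin and 1.17 ± 0.14 in vehicle ganglia at 36 h over 18 h.

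**Figure D4:**
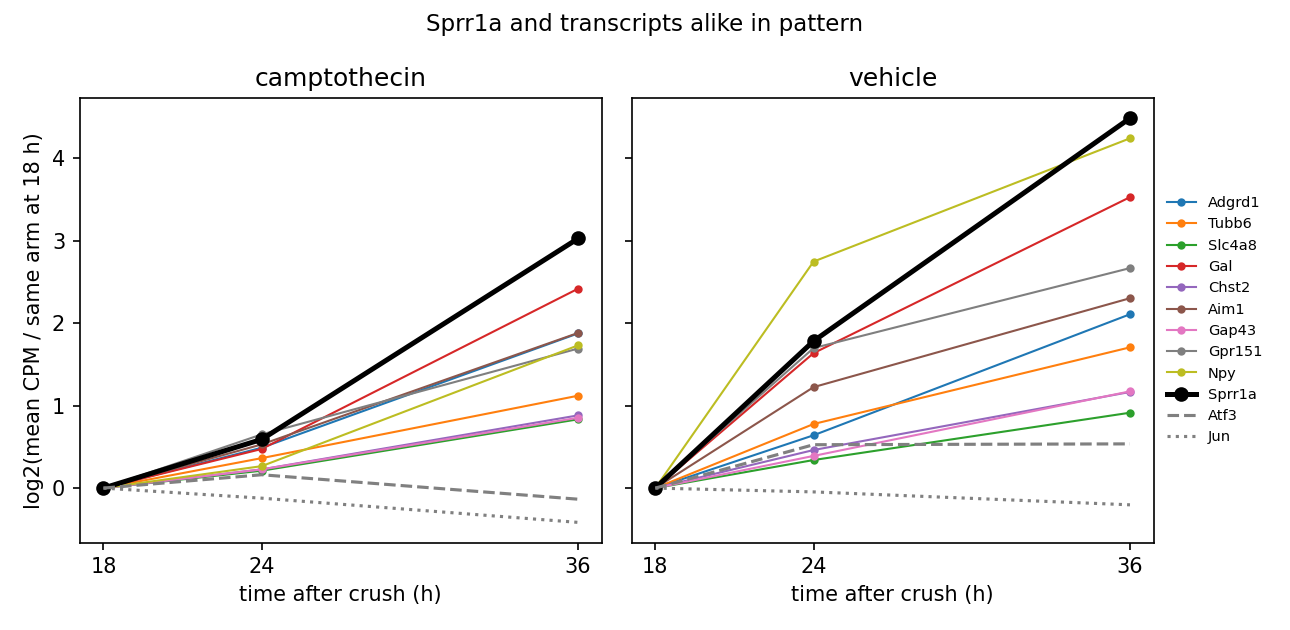
Course of Sprr1a (black) and 9 of the 10 transcripts most alike in pattern, as log2 of the group mean in CPM over the mean of the same arm at 18 h, with camptothecin left and vehicle right. Atf3 and Jun are drawn as broken and dotted grey lines. Sprr1a ends highest in both arms, and Jun ends below 0 in both.

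After each group's mean was subtracted, the highest correlations with Sprr1a were those of Tubb6 (r = 0.89), Epb4.1l4a (0.859), the adhesion protein Flrt3 (0.855), Adgrd1 (0.845) and Slc4a8 (0.843). So 3 of these 5 were also among the 10 alike over all libraries. The levels of Tubb6 in camptothecin and vehicle ganglia averaged 67.5 and 45.7 CPM at 18 h, and 147 and 149 CPM at 36 h. Those of Adgrd1 averaged 33.4 and 27.3 CPM at 18 h, and 123 and 118 CPM at 36 h. For Gal and Npy the correlation within groups was 0.546 and 0.734.

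Atf3 and Jun, transcription factors of the ATF and AP-1 families, were flatter in value over time. Atf3, already at 519 ± 24.7 CPM in camptothecin and 344 ± 59.4 CPM in vehicle ganglia at 18 h, rose in vehicle ganglia at 36 h over 18 h by 0.54 ± 0.13 (edgeR adjusted p = 0.0374). In camptothecin ganglia it had -0.14 ± 0.13. At 18 h it was higher in camptothecin than in vehicle ganglia by 0.59 ± 0.13 (edgeR adjusted p = 0.0323). Its r with Sprr1a over libraries was 0.412. Jun averaged 459 ± 27.8 CPM in camptothecin and 459 ± 11.1 CPM in vehicle ganglia at 18 h, and 344 ± 29.1 and 399 ± 14.8 CPM at 36 h. Its log2 fold changes at 36 h over 18 h, -0.42 ± 0.10 in camptothecin and -0.20 ± 0.10 in vehicle ganglia, did not pass in either arm. The fall of Jun averaged over the arms did pass (-0.31 ± 0.07, edgeR adjusted p = 0.0134), in a comparison with 4.03% of transcripts called. The r of Jun with Sprr1a was -0.703. Of the 21 AP-1, ATF and C/EBP genes tested (26 transcripts), 0 rose and 1 fell in camptothecin ganglia, the stress factor Ddit3 (-0.87 ± 0.19, edgeR adjusted p = 0.0318), and DESeq2 called 0 and 2. In vehicle ganglia 1 rose, Atf3, and 0 fell, and DESeq2 called the same numbers. Over all transcripts 0.36% rose and 0.15% fell in camptothecin ganglia and 1.01% and 0.43% in vehicle ganglia. For the mean of the arms, 0 of the 26 rose and 3 fell by edgeR, Jun among the 3, and DESeq2 gave the same numbers. There edgeR called 4.03% of all transcripts. Whether the list differs from that background was not tested. The median log2 fold change of the 26 transcripts was -0.06 in camptothecin and 0.07 in vehicle ganglia, beside -0.02 and -0.00 over all.

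Other genes of the regeneration response rose with Sprr1a. The list held 39 symbols, of which 34 were tested (44 transcripts, Sprr1a among them). In camptothecin ganglia 9 transcripts rose and 0 fell at 36 h over 18 h (median 0.32, beside -0.02 over all; 0.36% of all transcripts rose and 0.15% fell), and DESeq2 called 11 and 1. In vehicle ganglia 19 rose and 0 fell (median 1.03, beside -0.00 over all; 1.01% of all rose and 0.43% fell), and DESeq2 called 20 and 0. The smallest p-values were those of Gpr151, Gal and Sprr1a in both arms. Gpr151 rose by 1.69 ± 0.19 in camptothecin and 2.67 ± 0.22 in vehicle ganglia. Sox11, a transcription factor of axon regrowth, rose in vehicle ganglia (0.78 ± 0.14, edgeR adjusted p = 0.00359) and had 0.29 ± 0.14 in camptothecin ganglia (edgeR adjusted p = 0.437). Passing in 1 arm only is not a difference between the arms. The camptothecin effect at 36 h minus that at 18 h called 0 of the 44 by edgeR (18 at an unadjusted p under 0.05, 1 lower by DESeq2). At 18 h 7 of the 44 were already higher and 1 lower in camptothecin than in vehicle ganglia, where 1.58% of all were called. Many members are listed because they are known to rise after nerve injury, so the direction of the list is no independent evidence.

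Of 22 genes of the gp130 and Stat3 pathway tested (38 transcripts), 0 passed edgeR's test at 36 h over 18 h in either arm, where 0.511% of all transcripts passed in camptothecin and 1.44% in vehicle ganglia. At those shares a count of 0 is near the background and is not a result about the pathway. An unadjusted p under 0.05 was found for 2 transcripts in camptothecin and 3 in vehicle ganglia, and DESeq2 called 1 and 0, and 1 averaged over the arms. The main transcript of Il6st, which encodes gp130, had 0.22 ± 0.11 in camptothecin and 0.21 ± 0.11 in vehicle ganglia. Socs3, a feedback inhibitor of the pathway, had 0.10 ± 0.24 and -0.09 ± 0.26. The smallest p-values in vehicle ganglia were those of the cytokine Clcf1 (2.19 ± 0.87) and of 1 transcript of the kinase Jak1 (1.19 ± 0.50). Clcf1 averaged no more than 1.60 CPM in any group, so its value rests on few reads. For the camptothecin effect averaged over the times, 2 transcripts were higher and 1 lower (2.59% and 7.69% of all transcripts). They were the kinase Pim3 (0.40 ± 0.09), 1 of 3 tested transcripts of the oncostatin M receptor Osmr (0.21 ± 0.06), and Stat5b (-1.54 ± 0.47). Stat5b averaged no more than 3.415 CPM in any group, so its value rests on few reads.

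Sprr1a was the only one of 17 listed Sprr genes in the table. Of 35 listed genes of the epidermal differentiation complex around it, 9 were measured (10 transcripts). At 36 h over 18 h 2 rose and 0 fell in each arm, S100a11 (0.91 ± 0.15 in camptothecin, 1.13 ± 0.16 in vehicle ganglia) and S100a10 (0.57 ± 0.11 and 0.75 ± 0.11), both of the S100 family. DESeq2 called 2 and 0 in each arm as well. Of all transcripts 0.36% rose in camptothecin and 1.01% in vehicle ganglia. S100a11 averaged 111 ± 9.92 CPM in camptothecin and 115 ± 6.42 CPM in vehicle ganglia at 36 h. At the same times Sprr1a averaged 774 and 843 CPM.

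Of 14 listed genes of cornified envelope assembly 6 were measured (7 transcripts). Anxa1, which encodes the phospholipid-binding annexin A1, rose at 36 h over 18 h by 1.89 ± 0.34 in camptothecin (edgeR adjusted p = 0.00902) and by 2.62 ± 0.39 in vehicle ganglia (edgeR adjusted p = 0.000529), in its main transcript. No other transcript of the list passed by edgeR in these comparisons. Of all transcripts 0.36% rose in camptothecin and 1.01% in vehicle ganglia. With that of Anxa1 counted, 3 had an unadjusted p under 0.05 in each arm, and DESeq2 called 1 in camptothecin and 2 in vehicle ganglia. The transglutaminase Tgm2, an enzyme of the family that cross-links Sprr proteins in skin, had 0.83 ± 0.27 in camptothecin ganglia (edgeR adjusted p = 0.217).

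Keratinocyte markers were low in all libraries. Of 20 listed, 5 were measured (Krt1, Krt6a, Krt10, Krt16 and Sfn), and the rest, with Krt5 and Krt14 among them, were not analysed here. Their summed level lay between 10.4 and 13.8 CPM in camptothecin and between 9.24 and 16.5 CPM in vehicle ganglia at 36 h, and between 7.51 and 14.7 CPM and between 9.95 and 18.0 CPM at 18 h. None passed at 36 h over 18 h by edgeR or DESeq2 in either arm, with 0 at an unadjusted p under 0.05 in camptothecin and 1 in vehicle ganglia. With 0.511% and 1.44% of all transcripts called there, 0 of 5 is near the background. At 36 h each library thus held far more of Sprr1a than of these 5 genes together.

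Markers of other cells were read beside the time course. Summed macrophage markers (10 of 12 genes measured) were 281 to 452 CPM in camptothecin and 287 to 371 CPM in vehicle ganglia at 36 h, and 155 to 279 CPM and 161 to 206 CPM at 18 h. Of their 11 transcripts edgeR called 2 higher in camptothecin ganglia at 36 h over 18 h, Mrc1 and C1qb (5 at an unadjusted p under 0.05, 3 by DESeq2), beside 0.36% of all. In vehicle ganglia it called 0 (3 at an unadjusted p under 0.05, 0 by DESeq2), where 1.01% of all rose, so 0 of 11 is near the background. Averaged over the arms it called 3 higher, where 4.03% of all were called. The median log2 fold change of these transcripts was 0.97 in camptothecin and 0.74 in vehicle ganglia. The arms were compared directly by the camptothecin effect at 36 h minus that at 18 h. It called 0 of the 11 (median 0.25, 1 at an unadjusted p under 0.05, 0 by DESeq2), where 0.0107% of all were called. Whether the list as a whole differs between the arms was not tested. Summed fibroblast markers (9 of 10 genes) were 1794 to 2332 CPM in camptothecin and 1244 to 1635 CPM in vehicle ganglia at 36 h, and 1136 to 1331 CPM and 1033 to 1672 CPM at 18 h. Summed sensory neuron markers were 26290 to 29720 CPM in camptothecin and 29440 to 36360 CPM in vehicle ganglia at 36 h, and 36020 to 41640 CPM and 36680 to 38770 CPM at 18 h. Of 19 transcripts of fibroblast markers, edgeR called 4 higher in camptothecin ganglia, those of Lum, Dcn and Apod (13 at an unadjusted p under 0.05, 10 higher by DESeq2), where 0.36% of all transcripts rose. In vehicle ganglia it called 0 (1 at an unadjusted p under 0.05, 0 by DESeq2), where 1.01% of all rose, so 0 of 19 is near the background. The camptothecin effect at 36 h minus that at 18 h called 0 of the 19 (10 at an unadjusted p under 0.05, 0 by DESeq2). Of 37 transcripts of sensory neuron markers, edgeR called 0 higher and 3 lower in camptothecin ganglia at 36 h over 18 h. DESeq2 called 0 and 4, and 0.15% of all transcripts fell by edgeR. The 3 were of the neurofilament genes Nefh, Nefl and Nefm, which fell by 0.58, 0.49 and 0.62 on the log2 scale. The median of the 37 was -0.27 in camptothecin and -0.07 in vehicle ganglia. In vehicle ganglia 1 of the 37 rose, Tubb3 (0.59 ± 0.11), and 1 fell, the sodium channel Scn10a (-0.58 ± 0.14). DESeq2 called the same numbers there, and 1.01% of all transcripts rose and 0.43% fell by edgeR. Averaged over the arms 2 of the 37 rose and 6 fell (1 and 10 by DESeq2), where edgeR called 4.03% of all. The part of these shifts in the course of Sprr1a was not tested.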

How the data were processed

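RNA of whole ganglia was made into cDNA with a Nugen Ovation kit and sequenced from both ends, per the labels' protocols. The submitters' processing notes name CASAVA 1.8.2, the package limma and build mm10; which aligner and counter were used is not stated in these sources. The authors deposited a raw count per transcript and library, a variance-stabilised log2 value, and log2 fold changes with p-values and adjusted p-values. Each column is named by letter, time and replicate. The letter A was read as vehicle, because the deposited fold changes, headed camptothecin against vehicle, equal the B minus the A column means (largest gap 8.7e-14 at 18 h, 4.33 exchanged). Replicates of a group always differed by more than sampling error (chi-square divided by its degrees of freedom, 3.31 to 22.8).

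The counts went into edgeR 4.0.16 (R 4.3.3): filterByExpr (min.count 10, min.total.count 15) kept 18606 of 19571 transcripts, TMM scaling, 1 fit of 6 group means, 13 residual degrees of freedom. SE is the fold change divided by the root of F. The 291 transcripts without a symbol held 0.501% to 0.568% of counts. The script was tested on simulated data. limma 3.58.1, DESeq2 1.42.0, other scalings and filters, a replicate block and single omitted libraries were alternatives; GC and robust-dispersion fits were added after seeing the data. Named were Sprr1a, the transcripts most alike (1 is not reported here), the comparison genes Atf3, Jun, Sox11, Gal, Npy, Gap43, Stat3, Il6st and Socs3, and up to 3 list members with the smallest p. Sprr1a and the lists were chosen with earlier results of these data known.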

Additional observations from a re-analysis of the deposited data

How the results depend on the processing

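The rises of Sprr1a at 36 h over 18 h and over 24 h kept their direction and stayed under 0.05 in every alternative run, in each arm and averaged. Adjusted p under 0.05 was gained for camptothecin over vehicle at 18 h with DESeq2 (1.38), library totals (1.47), a minimum count of 50 (1.41) and counts summed by symbol (1.36), and it ran from 0.82 to 1.74 over single omitted libraries. It was lost for vehicle 24 h over 18 h with limma-voom (1.96), the library total as covariate (1.53), the GC correction (1.69) and robust dispersion (1.80), with 1.45 to 2.18 over omitted libraries. For both arms at 24 h over 18 h it was lost with that covariate (0.98), the GC correction (1.10) and robust dispersion (1.20), with 1.02 to 1.46. Camptothecin over vehicle turned to -0.083 at 24 h with the covariate, to -0.072 with the replicate block and GC correction, and to 0.12 at 36 h without the libraries numbered 4 (-0.33 to 0.12 over omitted libraries). The average ran from 0.28 to 0.59. The cause of these shifts was not tested. The numbers were not taken to pair libraries, since the correlation of deviations within a time ran from -0.243 to 0.252, the highest for the libraries numbered 4 of 18 h. Over all times its median was 0.0916 for 37 same-numbered pairs (-0.243 to 0.478) and -0.0242 for 113 others. With the replicate block Sprr1a had 1.30 ± 0.36 at 18 h (edgeR adjusted p = 0.057), 0.03 at 24 h and -0.02 at 36 h, with no call changed. The number of transcripts called at 18 h moved between 0 and 961 over the alternatives, against 294, and at 36 h between 0 and 1080, against 466. The lowest depth behind a Sprr1a level was that of the vehicle libraries of 18 h, with 78 to 185 reads.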

Other observations

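Actin regulators, listed because Sprr1a protein lies with filamentous actin, were read in the same comparisons (19 of 22 genes, 32 transcripts). At 36 h over 18 h 1 transcript rose in camptothecin ganglia, the actin-binding Marcksl1 (1.14 ± 0.24, edgeR adjusted p = 0.0332). In vehicle ganglia 2 rose, Marcksl1 (1.09 ± 0.28, edgeR adjusted p = 0.0492) and the growth cone protein Basp1 (0.73 ± 0.11, edgeR adjusted p = 0.000438). Over all transcripts 0.36% rose in camptothecin and 1.01% in vehicle ganglia. None fell in either arm by edgeR or by DESeq2, which called 1 and 3 higher. For the camptothecin effect averaged over the times 3 of the 32 transcripts were higher and 4 lower, beside 2.59% and 7.69% of all transcripts, with the smallest p-values in Marcks (-0.92 ± 0.13), Wasl (-0.39 ± 0.07) and the non-muscle myosin Myh9 (0.33 ± 0.07). Of the satellite glia markers (9 genes, 13 transcripts) 1 transcript rose and 0 fell at 36 h over 18 h in each arm. It was that of glutamine synthetase, Glul (0.64 ± 0.11 in camptothecin, 0.85 ± 0.11 in vehicle ganglia). The median log2 fold change of the 13 transcripts was 0.03 in camptothecin and -0.05 in vehicle ganglia, beside -0.02 and -0.005 over all.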
